A study of Mus musculus with 28 samples.

Results

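Calr3, Trim54 and Slc11a1 are genes that were raised in KEAP1-KO 3LL cells and lowered again in cells that also lack NRF2, and that do not belong to the classic detoxification genes of the NRF2 pathway. The 3 genes were chosen by their symbols among the 18509 rows with a symbol, out of 43143 rows in the table, and each has 1 row. Their levels in cultured cells were therefore known when they were chosen, and the cell values below are a description with no test. The rule names no tumor comparison, and the comparisons between tumors were tested, although earlier results of the tumors were also known when the genes were chosen.

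RNA-seq was performed on 28 libraries in 7 groups of 4. The line 3LL (Lewis lung carcinoma) is a mouse lung cancer line that forms tumors in immunocompetent C57BL/6 mice. KEAP1-KO cells carry a homozygous frameshift insertion in exon 2 of Keap1, and DKO cells (Keap1-Nrf2-DKO in the labels) were made from KEAP1-KO cells by a second edit in Nrf2 (Nfe2l2), so all DKO samples also lack KEAP1. Both edited lines were grown from single colonies, so that a difference from WT cells cannot be told apart from a difference of that clone. WT, KEAP1-KO and DKO cells in culture made up 12 libraries. The 16 tumors grew under the skin of male albino C57BL/6 mice that were 6 weeks old at injection, and were taken on day 10. In Experiment A the left flank of a mouse received WT cells and the right flank KEAP1-KO cells, and in Experiment B the left flank received KEAP1-KO cells and the right flank DKO cells. Genotype and flank thus changed together, and WT tumors were never grown beside DKO tumors. Nothing in the labels says whether the 4 libraries of a cell line came from separate cultures, and their spread may be technical.

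KEAP1 is the adaptor that hands the transcription factor NRF2 to a ubiquitin ligase for degradation. Without KEAP1, NRF2 accumulates, pairs with a small MAF protein and binds antioxidant response elements (AREs) near genes of glutathione synthesis, quinone reduction and NADPH supply. Calr3 (calreticulin 3, also calsperin) encodes a chaperone of the endoplasmic reticulum known from male germ cells. Trim54 (MuRF3) encodes a RING finger ubiquitin ligase that binds microtubules and the sarcomere in striated muscle. Slc11a1 (NRAMP1) encodes a divalent metal transporter of the phagosome and is known from macrophages and neutrophils.

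The libraries held between 4222381 and 7524293 reads (median 5619800), as recovered from the deposited values. Rows without a read made up 13.9% to 23.5% of a library. Values are log2(normalized count + 4), the normalized count being the reads of a row scaled by a factor common to its library. A row without reads has a value of 2, so a difference between groups understates the change of a gene that is near this floor in either group. The edited genes were read first. Keap1 had mean values of 9.45 in WT cells and 8.88 in WT tumors, and between 7.35 and 7.59 in the 5 groups without KEAP1. The row of Nfe2l2, a processed transcript, had means from 4.84 to 6.01 over the 7 groups, with a mean of 5.59 in both groups of Experiment B tumors, whose ranges overlapped. Nqo1, the quinone reductase used to read NRF2 activity, had means of 12.23 to 12.45 in the 3 KEAP1-KO groups and of 5.93 to 9.01 in the 4 other groups. Among genes that mark other cells, those of germ cells had no row, and of the liver markers (the labels name liver in the RNA extraction) only Alb and Apoa2 had one. Of 8 epithelial markers 5 had a row, and of 6 lung epithelial markers only Napsa.

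The windows of 250 bases before the annotated start sites are shown because the 3 genes moved in the direction of the classic NRF2 targets in cells and tumors. Calr3 and Trim54 were called in both tumor experiments, whereas Slc11a1 was not called in Experiment A. Sequences are those of RefSeq on GRCm38.p6, read 5′ to 3′ on the strand of the gene, and 3 of the 3 genes were matched by symbol, Calr3 with more than 1 start site. Capitals mark a match, on either strand, to the core of the ARE (TGACNNNGC) or to the AP-1 core (TGANTCA), which can overlap with the former.
Calr3, start site 1 (chr8:72443779-72444028, minus strand): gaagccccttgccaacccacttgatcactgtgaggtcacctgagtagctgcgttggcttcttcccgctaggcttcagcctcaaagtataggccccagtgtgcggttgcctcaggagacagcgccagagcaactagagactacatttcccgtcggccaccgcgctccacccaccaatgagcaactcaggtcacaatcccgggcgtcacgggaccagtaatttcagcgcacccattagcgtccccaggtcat
Calr3, start site 2 (chr8:72435157-72435406, minus strand): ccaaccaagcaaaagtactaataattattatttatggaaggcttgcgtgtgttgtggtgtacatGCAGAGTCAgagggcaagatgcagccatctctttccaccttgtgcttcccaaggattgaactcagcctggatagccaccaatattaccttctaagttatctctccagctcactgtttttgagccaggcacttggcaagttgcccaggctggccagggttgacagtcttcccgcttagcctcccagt
Trim54 (chr5:31116362-31116611, plus strand): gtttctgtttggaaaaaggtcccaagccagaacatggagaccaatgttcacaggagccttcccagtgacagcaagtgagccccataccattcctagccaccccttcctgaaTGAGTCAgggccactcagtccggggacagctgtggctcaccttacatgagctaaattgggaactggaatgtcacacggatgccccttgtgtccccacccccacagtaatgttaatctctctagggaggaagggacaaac
Slc11a1 (chr1:74374953-74375202, plus strand): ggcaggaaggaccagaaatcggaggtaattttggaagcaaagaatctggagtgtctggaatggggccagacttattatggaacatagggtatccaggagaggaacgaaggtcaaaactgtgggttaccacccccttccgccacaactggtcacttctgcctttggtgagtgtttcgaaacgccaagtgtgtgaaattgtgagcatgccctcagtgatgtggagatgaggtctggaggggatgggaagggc
The window of start site 2 of Calr3 held 1 ARE core on the opposite strand, between 186 and 178 bases before the start. Trim54 held 1 AP-1 core, between 139 and 133 bases before the start. Neither motif was in the window of start site 1 of Calr3 or in that of Slc11a1. Over all 32851 promoter windows of this length, 10.2% held the ARE core and 6.75% the AP-1 core. The same window of Nqo1 held neither. A match of these letters is a description of the sequence only, and NRF2 binding was not measured in these data.

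Calr3 was read from its gene row (ENSMUSG00000019732). In cultured WT cells its log2 values were 5.21, 4.74, 4.80 and 4.33, from 15 to 29 reads per library. KEAP1-KO cells had 8.59, 8.70, 8.61 and 8.55, from 409 to 473 reads. DKO cells had 5.55, 5.39, 5.65 and 5.46. All KEAP1-KO libraries thus lay far above the others, and the DKO libraries lay just above the WT libraries without overlap. In normalized counts, the mean of KEAP1-KO cells was 387 against 23.9 in WT cells, 16.2-fold higher, and 41.8 in DKO cells, 9.28-fold lower than in KEAP1-KO cells.

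Calr3 was lower in WT and DKO tumors than in the cells of these genotypes, while KEAP1-KO tumors and KEAP1-KO cells overlapped. In bulk tumor RNA fewer cells of a type and less RNA per cell cannot be told apart, and tumors hold host cells that the cultures lack. WT tumors of Experiment A had values of 3.09, 4.03, 3.38 and 3.91, from only 5 to 13 reads. KEAP1-KO tumors of the same experiment had 7.87, 7.94, 8.63 and 7.78. Every KEAP1-KO tumor was above every WT tumor by a wide margin. The mean rose from 3.60 ± 0.45 (SD, n = 4) to 8.05 ± 0.39 (n = 4), a difference of 4.45 (standard error 0.24, 95% interval 3.94 to 4.96, adjusted p = 8.1e-09, limma with Benjamini-Hochberg adjustment). This was the 10th highest difference of the 34215 rows tested in tumors. The mean normalized counts were 270 and 8.58, 31.5-fold higher in KEAP1-KO tumors.

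In Experiment B the direction of Calr3 was the opposite. KEAP1-KO tumors had values of 8.002, 8.58, 8.09 and 8.16, and DKO tumors had 3.54, 3.49, 4.08 and 4.07. The groups did not overlap, and the lowest DKO tumors had 7 reads. Calr3 fell from 8.21 ± 0.26 (SD, n = 4) to 3.80 ± 0.32 (n = 4), a difference of -4.41 (standard error 0.24, 95% interval -4.92 to -3.90, adjusted p = 8.6e-09, limma). This was the 12th lowest difference of all rows tested, and 29.1-fold in mean normalized counts. DKO tumors did not differ from WT tumors beyond the spread of the tumors (difference 0.19, 95% interval -0.32 to 0.70, adjusted p = 0.699, limma), and the KEAP1-KO tumors of the 2 experiments differed by 0.16 with overlapping values (95% interval -0.36 to 0.67, adjusted p = 0.920, limma).

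**Figure D1:**
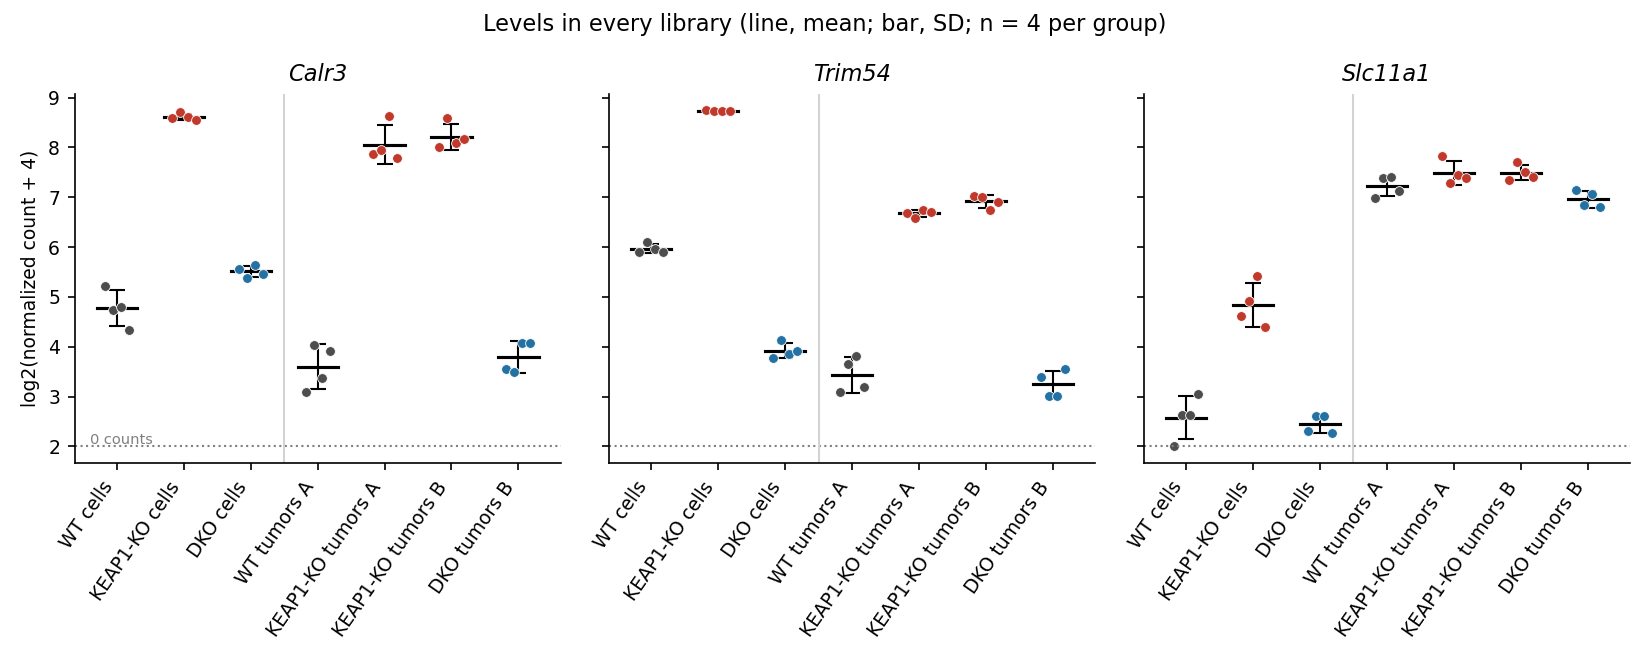
Log2(normalized count + 4) of Calr3, Trim54 and Slc11a1 in each of 28 libraries, by group of 4; the line is the group mean, the bar its SD, and the dotted line marks 0 counts. For Calr3 and Trim54 the KEAP1-KO groups stand above the WT and DKO groups in cells and in tumors, whereas the Slc11a1 values of all 16 tumors lie between 6.80 and 7.84.

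Trim54 was also read from its gene row (ENSMUSG00000062077). WT cells had log2 values of 5.90, 6.10, 5.97 and 5.90, and KEAP1-KO cells had 8.74, 8.73, 8.73 and 8.73. DKO cells had 3.78, 4.14, 3.86 and 3.92, from 10 to 13 reads per library. The 3 genotypes did not overlap, and DKO cells lay not between the others but below WT cells. The mean normalized count was 58.7 in WT cells and 422 in KEAP1-KO cells, 7.18-fold higher, and it was 37.5-fold lower in DKO than in KEAP1-KO cells. Relative to WT cells the DKO mean was 5.22-fold lower, a difference of -2.04 on the log2 scale. Calr3 had a difference of the other sign there, 0.74.

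All tumor groups had less Trim54 than the cells of their genotype, without overlap. WT tumors had values of 3.09, 3.65, 3.81 and 3.18, from 5 to 11 reads, and KEAP1-KO tumors of Experiment A had 6.69, 6.58, 6.75 and 6.70. The groups were well apart. Trim54 rose by 3.24 (standard error 0.18, 95% interval 2.86 to 3.63, adjusted p = 1.2e-08, limma), which was the 32nd highest difference of the rows tested. Its mean normalized count was 98.5 in KEAP1-KO and 7.05 in WT tumors, 14.0-fold higher. KEAP1-KO cells had 4.28-fold as much as these tumors.

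DKO tumors of Experiment B again had low Trim54 values, 3.40, 3.02, 3.01 and 3.55, against 7.03, 7.01, 6.75 and 6.90 in the KEAP1-KO tumors. No value of one group reached the other. The mean fell from 6.92 ± 0.13 (SD, n = 4) to 3.24 ± 0.27 (n = 4), a difference of -3.68 (standard error 0.18, 95% interval -4.06 to -3.29, adjusted p = 2.8e-09, limma), or 21.0-fold in mean normalized counts. Unlike in cells, DKO and WT tumors overlapped, with 4 to 9 and 5 to 11 reads per tumor and a difference of -0.19 (95% interval -0.58 to 0.20, adjusted p = 0.600, limma). Small changes between values so near the floor are not detectable at this depth, and whether cells and tumors differ in it was not tested. The KEAP1-KO tumors of Experiment B lay above those of Experiment A without overlap, by 0.24. That difference was not called in the fit over all rows (95% interval -0.14 to 0.63, adjusted p = 0.800, limma), where 0.164% of the rows were called.

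Slc11a1 is represented by a single transcript, ENSMUST00000147233, which the GENCODE vM21 annotation lists as a retained intron and not as protein coding. It has 14 exons and 2584 bases, of which 279 (10.8%) in 1 stretch are not part of the coding transcript with 15 exons, and lie between exon 11 and the next exon of that transcript. The annotation lists 11 transcripts of this gene. Since most of the sequence is shared, the row may hold reads of other Slc11a1 transcripts, spliced or not, and its value is not the total of the gene.

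In cells this row was near the floor in WT and DKO libraries and above it in KEAP1-KO libraries. WT cells had 0, 2, 2 and 4 reads, and DKO cells 1, 2, 2 and 1. KEAP1-KO cells had 22, 30, 41 and 19 reads, which gave log2 values of 4.61, 4.92, 5.41 and 4.39. The KEAP1-KO libraries stood above the other 8 libraries, among which WT and DKO cells overlapped. The mean normalized count of KEAP1-KO cells was 25.6, against 2.15 in WT cells and 1.51 in DKO cells, which corresponds to 11.9-fold and 17.0-fold. These ratios rest on 8 reads in all WT libraries together and on 6 in all DKO libraries. The log2 differences of KEAP1-KO cells were 2.26 from WT cells and, for DKO minus KEAP1-KO, -2.38.

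In tumors Slc11a1 was high in every genotype. The 16 tumors lay between 6.80 and 7.84, above all cell libraries. WT tumors had log2 values of 6.99, 7.38, 7.40 and 7.13, and KEAP1-KO tumors of Experiment A had 7.84, 7.28, 7.44 and 7.39. The groups overlapped, with 2 of the 4 KEAP1-KO tumors above every WT tumor. The difference was 0.26 (standard error 0.14, 95% interval -0.03 to 0.55, adjusted p = 0.258, limma). Whether cells and tumors differ in this change was not tested. The WT tumors had a mean normalized count of 147, 68.0-fold higher than WT cells, whereas the KEAP1-KO tumors, with 177 in either experiment, were 6.93-fold higher than KEAP1-KO cells.

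DKO tumors of Experiment B had Slc11a1 values of 7.15, 6.84, 7.06 and 6.80, and KEAP1-KO tumors had 7.35, 7.71, 7.50 and 7.41. The groups did not overlap, but the gap between them was small. Slc11a1 fell by 0.53 (standard error 0.14, 95% interval of the difference -0.82 to -0.24, adjusted p = 0.0208, limma), from 177 to 121 in mean normalized counts. The call was lost when any of 3 tumors was left out. Leaving out KEAP1-KO replicate 2, the difference was -0.46 (adjusted p = 0.0728, limma), leaving out DKO replicate 2 it was -0.49 (adjusted p = 0.0618, limma) and leaving out DKO replicate 4 it was -0.48 (adjusted p = 0.0634, limma). Each mouse carried both tumors, and with the replicate number as a block the adjusted p was 0.0870 (limma), but the labels do not say that the number marks the mouse. DKO and WT tumors overlapped (difference -0.26, 95% interval -0.55 to 0.03, adjusted p = 0.270, limma), and so did the KEAP1-KO tumors of the 2 experiments (0.01, 95% interval -0.28 to 0.30, adjusted p = 0.997, limma).

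**Figure D2:**
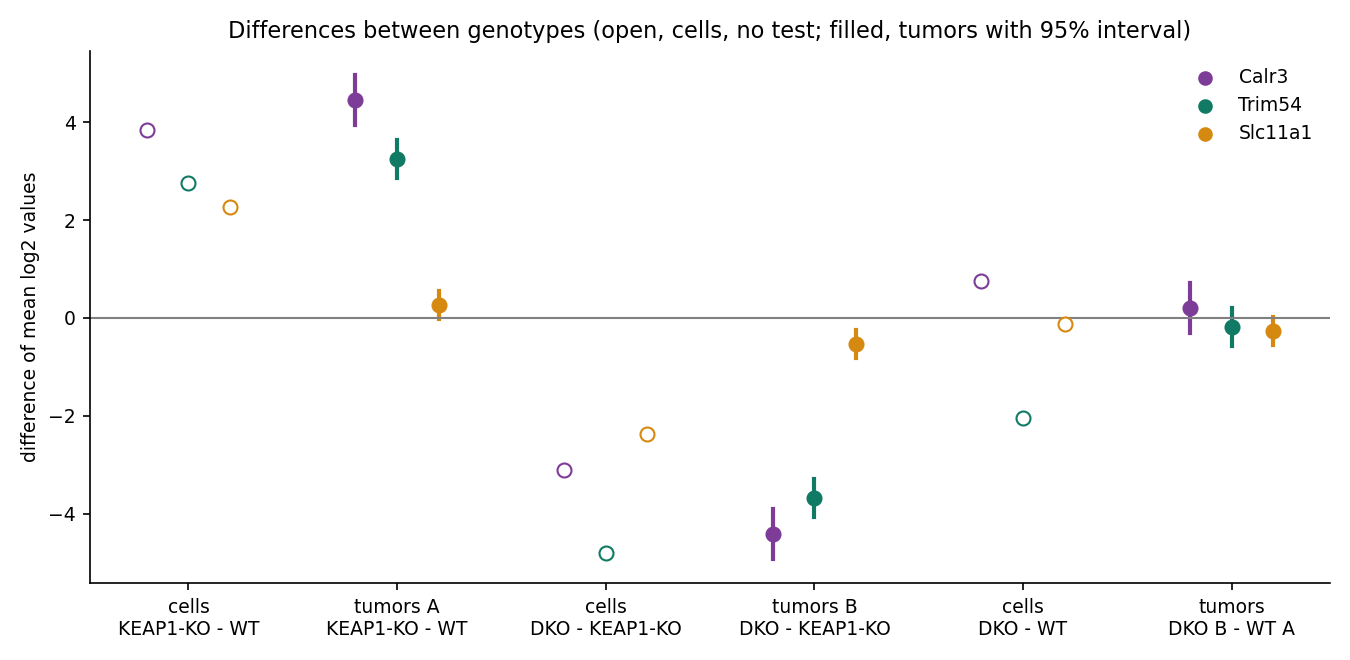
Difference of mean log2(normalized count + 4) between genotypes for Calr3, Trim54 and Slc11a1; open circles are cells, with no test because the genes were chosen there, and filled circles are tumors with the 95% interval of the limma fit. Calr3 and Trim54 change by 3.24 to 4.45 in Experiment A and by -3.68 to -4.41 in Experiment B, and Slc11a1 by 0.26 and -0.53.

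In counts of calls, 2 of the 3 genes rose without KEAP1 in Experiment A, where 5.61% of all rows were called higher, and 3 of 3 fell in DKO tumors of Experiment B, where 4.64% were called lower. The call of Slc11a1 there is the one that single tumors and the block ended. None of the 3 was called between DKO and WT tumors (0 also at an unadjusted p under 0.05, limma), where 10.6% of all rows were called. In cells, from which the genes were chosen, the KEAP1-KO libraries did not overlap with the WT libraries for any of the 3. The same holds for DKO against KEAP1-KO cells. By limma, 8.13% of all rows were called higher in the former comparison and 4.85% lower in the latter. That is another measure, and the share of all rows without overlap was not computed. The choice of the genes fixed both separations and favoured extreme ranks there, so nothing is read from the separations or the ranks. Among the 29744 rows ranked in cells, Calr3, Trim54 and Slc11a1 had the 16th, 72nd and 155th highest difference between KEAP1-KO and WT cells. Between DKO and KEAP1-KO cells they had the 41st, 8th and 112th lowest.

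Slc11a1 was set beside markers of the leukocytes in which it is known, because tumors hold them and cultures do not. All 20 listed markers of macrophages and monocytes had a row. Their summed normalized counts were between 95.8 and 257 in the 12 cell libraries, where 16 or 17 of the 20 were under 5 in every library of a group. Adgre1 (F4/80), Aif1, Cybb and Marco were at 0 in all 12. In WT tumors the sum was between 10715 and 14711, in KEAP1-KO tumors between 4265 and 5340 in Experiment A and between 7071 and 8181 in Experiment B, and in DKO tumors between 10473 and 14064. The macrophage marker sums were thus lowest in the KEAP1-KO tumors. Slc11a1 had its highest means there, but its groups overlapped in Experiment A without a call (adjusted p = 0.258, limma). In Experiment B its call was lost with single tumors left out and with the replicate block.

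By limma, 17 of the 20 macrophage markers fell without KEAP1 in Experiment A (against 7.49% of all rows) and 0 rose (0 also at an unadjusted p under 0.05), with a median difference of -1.71 against -0.03 for all rows. In Experiment B 11 of 20 rose in DKO tumors (against 4.22% of all rows) and 0 fell (0 unadjusted), with a median of 0.74 against 0.00. Csf1r, the receptor for macrophage colony-stimulating factor, differed by -2.01 and 0.82, and Itgam (CD11b) by -2.46 and 1.39. Of 10 general leukocyte genes, 10 fell in Experiment A (7.49% of all rows) and 9 rose in Experiment B (4.22%). The sum of the leukocyte genes was between 3723 and 4607 in WT tumors and between 911 and 1046 in KEAP1-KO tumors beside them. Of 13 neutrophil markers 7 had a row. Their sum was between 22.7 and 51.9 in cells, and in Experiment A between 678 and 2158 in WT and between 447 and 854 in KEAP1-KO tumors. The WT tumors other than replicate 4 reached at most 878. For Experiment B it was between 338 and 1292 in KEAP1-KO tumors and between 556 and 858 in DKO tumors, and the groups overlapped in both experiments. By limma 5 of 7 fell in Experiment A and 0 rose (0 unadjusted), with a median of -1.88, and 2 of 7 rose in Experiment B and 0 fell (0 unadjusted), with a median of 0.81. The part of host leukocytes in the Slc11a1 values of tumors was not tested. In cells 3 of the macrophage markers passed the filter on low values. Of these Cd68, a lysosomal glycoprotein, moved in the same direction as Slc11a1 in both comparisons, with a rise of 2.38 in KEAP1-KO cells and a difference of -1.26 for DKO minus KEAP1-KO cells (adjusted p = 1.8e-05 and 0.0045, limma). Unlike Slc11a1, whose WT and DKO cells overlapped near the floor, Cd68 was still higher in DKO than in WT cells, by 1.12 (adjusted p = 0.0054, limma). Cd14 was higher in DKO than in KEAP1-KO cells, by 0.89, and Lyz2 was not called.

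**Figure D3:**
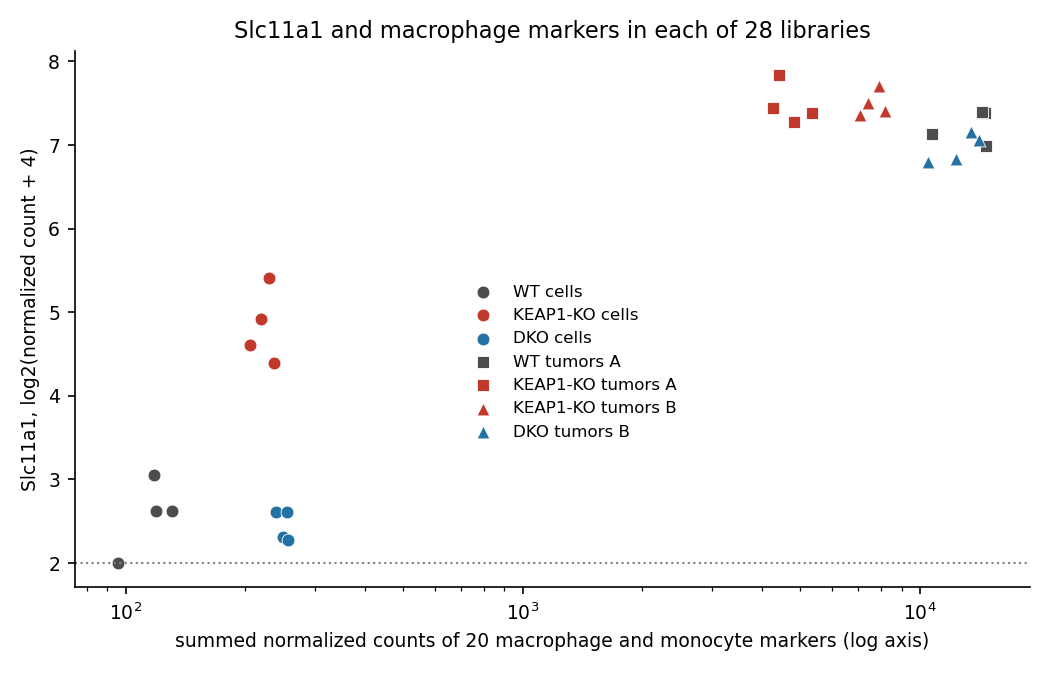
Log2(normalized count + 4) of Slc11a1 in each of 28 libraries against the summed normalized counts of 20 macrophage and monocyte markers (log axis); the dotted line marks 0 counts. Cells lie between 95.8 and 257 on the marker axis and tumors between 4265 and 14711, and among tumors the KEAP1-KO groups have the lowest marker sums. The part of host leukocytes in the Slc11a1 values was not tested.

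Genes of the same family or of a related process were compared next, from lists of known members. Most rows of these genes are single transcripts rather than gene rows. For Calr3, 16 of 18 genes of the calreticulin-calnexin cycle, which folds glycoproteins in the endoplasmic reticulum, had a row (not Clgn and Pdilt, which like Calr3 are known from testis). In Experiment A none of the 16 was called in either direction by limma (0 higher and 4 lower at an unadjusted p under 0.05), where 5.61% of all rows were called higher and 7.49% lower, and their median difference was -0.19 against -0.03 for all rows. Calr, the general calreticulin, differed by -0.15 (95% interval -0.30 to -0.01) as a retained-intron transcript, where Calr3 rose by 4.45. In Experiment B 3 of 16 rose in DKO tumors (4.22% of all rows) and 0 fell (0 unadjusted), with a median of -0.09 against 0.00. These were Hspa5 (BiP, the main chaperone of the endoplasmic reticulum; 0.42), and Uggt1 (0.58) and Uggt2 (0.44), which sense misfolded glycoproteins. The direction was the opposite of that of Calr3. In cells 14 were tested. Between KEAP1-KO and WT cells 1 rose and 3 fell by limma (8.13% and 7.33% of all rows). Between DKO and KEAP1-KO cells 4 rose and 0 fell (5 and 2 unadjusted), where 3.98% and 4.85% of all rows did.

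The MuRF family of muscle ubiquitin ligases comprises Trim63, Trim55 and Trim54, of which only Trim54 had a row. Skeletal muscle genes were read as a sign of muscle around the tumors, since Trim54 is known from muscle. Of 22 such genes 14 had a row, and their summed normalized counts were between 27.3 and 56.3 in cells, and between 60.1 and 314 in WT tumors and KEAP1-KO tumors. In DKO tumors the sum was 1753, 731, 1429 and 102, so that 3 of the 4 stood above all other tumors and replicate 4 did not. Of 8 that were tested, 3 rose in DKO tumors of Experiment B by limma (4.22% of all rows), namely Acta1 (skeletal actin; 2.96), Myh1 (a fast myosin; 2.70) and Des (desmin; 1.29), and 0 fell (0 unadjusted). In Experiment A 0 of 8 were called, also at an unadjusted p under 0.05, where 5.61% of all rows were called higher and 7.49% lower. In a limma fit of only the 2 groups of Experiment B, and with the replicate block, 0 of 8 were called there (7 and 6 higher at an unadjusted p under 0.05). The part of muscle in the Trim54 values of tumors was not tested. Of 4 epithelial markers tested, 2 fell in Experiment A (7.49% of all rows), Cdh1 (E-cadherin; -1.12) and Krt18 (a keratin; -0.97), and 0 rose (0 unadjusted). In Experiment B Cdh1 rose by 1.40 and Krt18 fell by 1.09. Napsa, a protease of the lung epithelium read from a retained-intron transcript, fell by 2.31 in Experiment A and rose by 2.04 in Experiment B, opposite to Calr3 and Trim54. In each experiment Napsa was not called in at least 1 of 8 other settings. Over these settings 1 to 2 epithelial markers were called lower in either experiment, and 0 to 1 higher in Experiment B. The part of epithelial cells was not tested.

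Slc11a2 (DMT1), the only other member of the NRAMP family, is the iron importer of the gut and of endosomes, and its row is a protein-coding transcript. It was near the floor in cells, with means of 2.21 to 3.07, and was not called in tumors (0.38 with a 95% interval of -0.93 to 1.69 in Experiment A, 0.93 with an interval of -0.38 to 2.24 in Experiment B). Of 20 genes of metal transport and storage 19 had a row and 16 were tested in tumors. In Experiment A 3 rose (5.61% of all rows) and 4 fell (7.49%) by limma, with a median of -0.02 against -0.03 for all rows. Over 8 other settings 3 were called higher and between 2 and 4 lower. The genes that rose were those of the ferritin chains Fth1 (0.96) and Ftl1 (1.38) and of the zinc exporter Slc30a1 (0.87). Those that fell were Cp (ceruloplasmin; -1.82), Slc40a1 (ferroportin, the iron exporter; -1.61), Hmox1 (heme oxygenase; -0.80) and Ncoa4 (which delivers ferritin for degradation; -0.25).

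In Experiment B 3 of the 16 metal genes fell in DKO tumors (4.64% of all rows) and 1 rose (4.22%). Fth1 fell by 1.58 and Slc30a1 by 0.95, as opposed to their rise in Experiment A. Slc40a1 fell again, by 1.28, and Cp rose by 3.65. The median was -0.13 against 0.00 for all rows. Fth1 and Slc30a1 thus shared the pattern of Calr3 and Trim54 across the 2 experiments, and most genes of this list did not. In cells 11 genes of the list were tested. Between KEAP1-KO and WT cells 4 rose and 1 fell by limma (8.13% and 7.33% of all rows). Between DKO and KEAP1-KO cells 5 fell and 1 rose (4.85% and 3.98% of all rows).

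**Figure D4:**
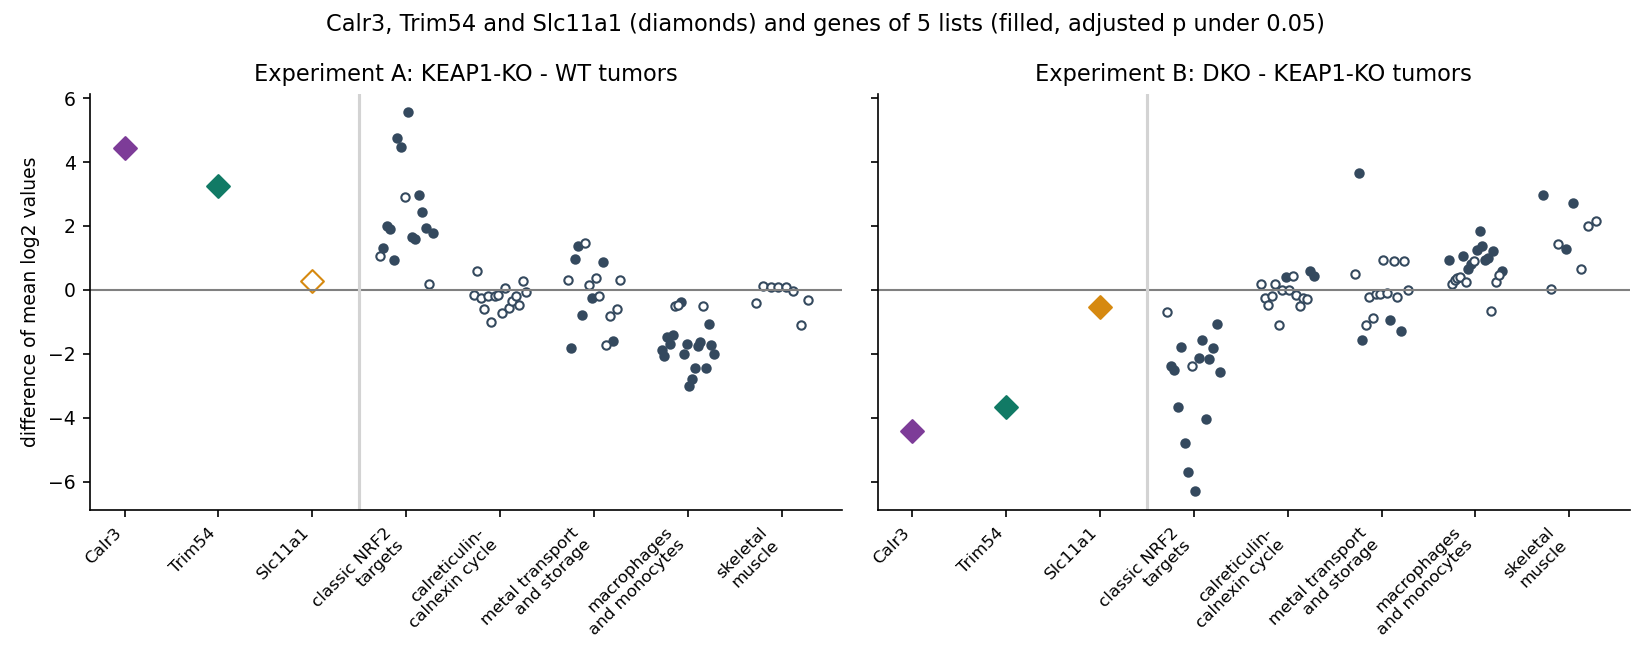
Differences of mean log2(normalized count + 4) in tumors for Calr3, Trim54 and Slc11a1 (diamonds) and for the tested genes of 5 lists (circles, 1 per gene); filled symbols passed an adjusted p of 0.05 in limma. Calr3 and Trim54 lie within the range of the classic NRF2 targets, 0.19 to 5.55 in Experiment A and -6.30 to -0.70 in Experiment B. Of these 16 targets 2 are gene rows and the others single transcripts.

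The classic NRF2 targets gave a scale for these changes, which depend on the level of a row because of the added 4. Of 16 listed genes 13 rose by limma in Experiment A (5.61% of all rows) and 0 fell (0 unadjusted), with a median difference of 1.91. In DKO tumors of Experiment B 14 of 16 fell (4.64% of all rows), with a median of -2.38. Only 2 of the 16, Nqo1 and Gsta4, are gene rows like those of Calr3 and Trim54. The others are single transcripts, so the order that follows is one of rows and not of whole genes. Calr3 had larger differences than 13 of the 16 rows in either experiment, below only Nqo1 (5.55 and -6.30), Gsta4 (4.75 and -4.78; a glutathione transferase) and Gstm1 (4.48 and -5.71). Trim54, with 3.24, came between Gstm1 and the cystine importer Slc7a11 (2.95) in Experiment A. In Experiment B, with -3.68, it came between Slc7a11 (-4.05) and Gclm, a subunit of the glutathione-synthesizing ligase (-3.66). Slc11a1, with 0.26 and -0.53, was above only Tkt (0.19) in Experiment A and below the smallest change of the list, that of Abcc1 (-0.70), in Experiment B.

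Between DKO and WT samples the classic targets were mostly lower. In cells, where 17.7% of all rows were called in either direction, 13 of 15 tested fell and 1 rose by limma, with a median difference of -0.72, and in tumors, where 10.6% were, 11 of 16 fell and 0 rose (0 unadjusted), with a median of -0.89. Gstm1 differed by -4.0 and Nqo1 by -2.24 in cells, and Trim54 by -2.04. Me1, the malic enzyme, rose by 0.71, and Calr3, at 0.74, was near that value.

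The rows whose levels were most like each gene were sought over all 28 libraries, as a description. The libraries share genotypes, and any row that follows NRF2 resembles another. For Calr3 the highest Pearson correlations were those of Taldo1 (0.97; a pentose phosphate enzyme), Adh7 (0.97; an alcohol dehydrogenase), Tsku (0.96), Panx1 (0.95) and Cat (0.95; catalase). Trim54 was closest to Cyb5a (0.97; cytochrome b5), Blvrb (0.97; biliverdin reductase B), Esd (0.97), Pgd (0.96; a pentose phosphate enzyme) and Aox1 (0.96; aldehyde oxidase). Taldo1 and Pgd are on the list of classic NRF2 targets. By Spearman correlation the first rows were Lrp2 for Calr3 (0.94) and Pcx, pyruvate carboxylase, for Trim54 (0.95).

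Over the 16 tumors alone, Calr3 and Trim54 were among the 5 rows most like each other, with a Pearson correlation of 0.98. They shared Gstm2 (a glutathione transferase), Blvrb and Gm20658 as close rows. Slc11a1 resembled other genes. Over the 28 libraries its closest rows were Vwf (0.98; von Willebrand factor), Notch4 (0.98), Gm43128 (0.97), Pla2g7 (0.97) and Ikbke (0.97), of which Vwf and Notch4 are known from endothelium and Pla2g7 from macrophages. Over the tumors alone the highest values were lower, from 0.89 for Gm48761 to 0.85 for Esam, and included Psmb5 (0.88; a proteasome subunit).

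The nearest genes on the chromosomes were compared to see whether a wider stretch moved. Calr3 lies on chromosome 8, Trim54 on chromosome 5 and Slc11a1 on chromosome 1, and the 3 nearest genes with a row on each side were taken, 18 in all. In Experiment A 2 of the 18 rose and 0 fell by limma (4 and 3 unadjusted), where 5.61% and 7.49% of all rows did. In Experiment B 1 rose and 0 fell (3 and 3 unadjusted), where 4.22% and 4.64% of all rows did. All 6 neighbours of Trim54 (Slc5a6, Atraid, Cad, Mpv17, Gtf3c2 and Eif2b4) were not called in either experiment, with differences from -0.32 to 0.40. Next to Calr3, 1700030K09Rik rose by 0.44 in KEAP1-KO tumors and Slc35e1 (a retained-intron transcript) rose by 1.68 in DKO tumors. Beside Slc11a1, Catip rose by 2.49 in KEAP1-KO tumors of Experiment A (adjusted p = 0.0023, limma) and differed by -1.17 in Experiment B, where it was not called. None of the 18 was called higher in Experiment A and lower in Experiment B. In cells 17 of the 18 were tested. Between KEAP1-KO and WT cells 4 rose and 1 fell by limma, where 8.13% and 7.33% of all rows did. Beside Calr3, Klf2 (a transcription factor) rose by 1.43 (adjusted p = 1.5e-09, limma), 1700030K09Rik rose by 0.34 and Gm10282 fell by 0.87. Eif2b4 beside Trim54 rose by 0.48 and Tmbim1 beside Slc11a1 by 0.70. Between DKO and KEAP1-KO cells 3 rose, namely Klf2 (0.46), Gm10282 (0.38) and Cad (0.20), and 0 fell (1 unadjusted), where 3.98% and 4.85% of all rows did. None of the 17 was called higher in KEAP1-KO than in WT cells and lower in DKO than in KEAP1-KO cells.

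**Figure D5:**
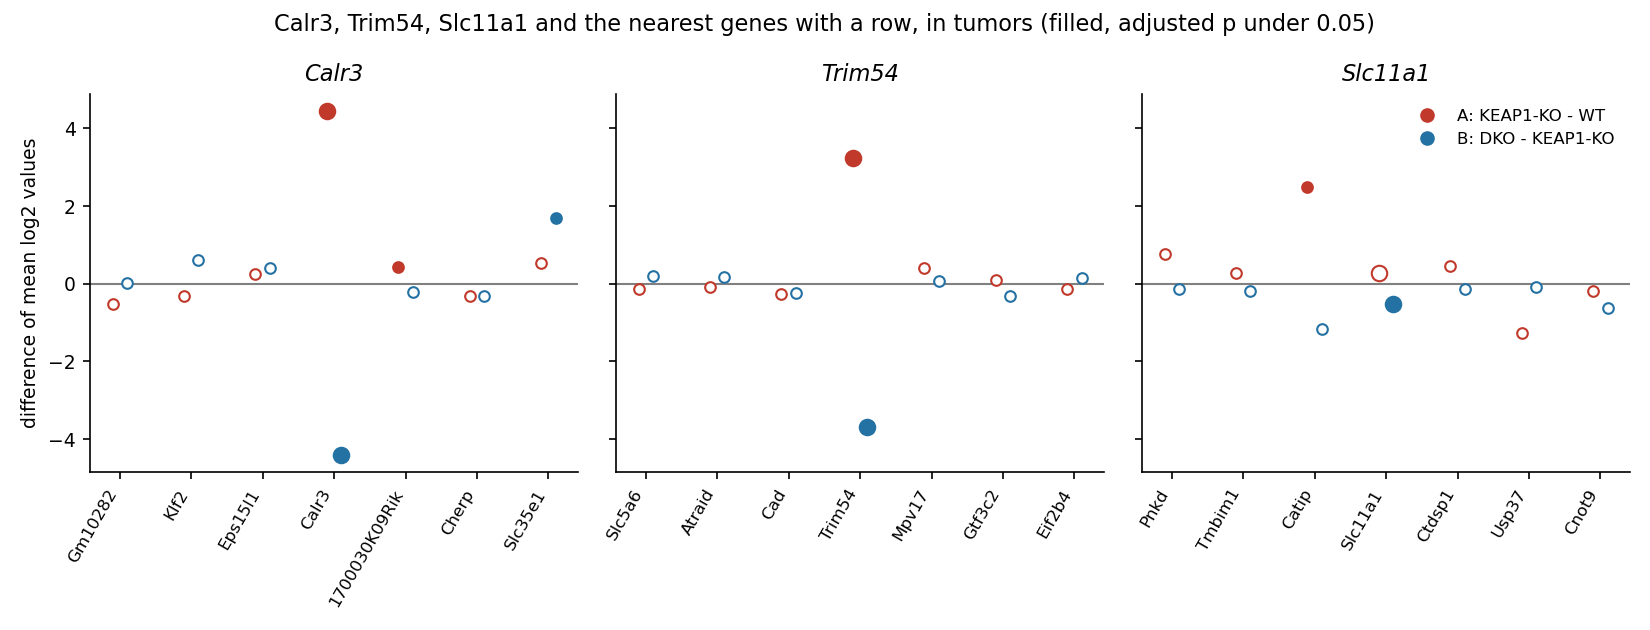
Differences of mean log2(normalized count + 4) in tumors for Calr3, Trim54 and Slc11a1 (large circles) and for the 3 nearest genes with a row on each side, in chromosome order; filled circles passed an adjusted p of 0.05 in limma. Calr3 (4.45 and -4.41) and Trim54 (3.24 and -3.68) stand apart from their neighbours, and Slc11a1 (0.26 and -0.53) does not.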

How the data were processed

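Total RNA for 12 cell libraries and 16 tumors was depleted of ribosomal RNA and made into strand-specific libraries. According to the methods, the authors quantified reads with Salmon on mouse GENCODE transcripts and used iDEP. The methods speak of TPM, but the deposited values are log2(normalized count + 4), since the lowest value is 2 and whole reads were recovered for 100% of the low values within 0.1. The filter that left 1 row for each of these genes is not given in the sources used here. No other columns of values were present (0).

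Differences were fitted with limma 3.58.1 (lmFit, eBayes with trend; R 4.3.3) on these values, 16 tumors in 1 fit and 12 cell libraries in another, over rows that reached 5 normalized counts in 4 or more libraries, with Benjamini-Hochberg adjustment over all rows and a threshold of 0.05. All 3 genes passed both filters. In cells Slc11a1 passed only through the KEAP1-KO libraries, since its normalized counts in WT and DKO cells were all under 5. The members, lists and comparisons were chosen with earlier results of these data known. Members are given in full, the members of their families in full, other lists by counts with their defining or most changed genes, the 5 most correlated rows with a symbol, and the 3 nearest genes on each side in the RefSeq table. Promoter windows came from RefSeq (GRCm38.p6), transcript types from GENCODE vM21, whose build may differ from that of the authors. The fit was tested on simulated data. Alternatives were another pseudocount (0.4), other filters (none, or a mean of 25), quantile normalization, median centring, only the 2 groups compared, no trend, a replicate block, each library left out and exact permutation tests.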

Additional observations from a re-analysis of the deposited data

How the results depend on the processing

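The differences of Calr3 and Trim54 between KEAP1-KO and WT tumors and between DKO and KEAP1-KO tumors kept their direction and their call under all alternatives run, and with each library left out they ranged from 4.26 to 4.60 and 3.13 to 3.37 in Experiment A and from -4.51 to -4.29 and -3.78 to -3.60 in Experiment B. The exact permutation test could not end these calls, since its unadjusted p is 0.0286 for any 4 against 4 tumors without overlap. Of 204 values in tumors under an alternative, permutation tests included, 199 stayed on their side of the threshold. Slc11a1 in Experiment B ranged from -0.60 to -0.46 with each library left out, and its adjusted p in limma from 0.0213 to 0.0728. With the replicate block the difference of Slc11a1 was -0.53 and the adjusted p 0.0870 (limma). The labels do not say that a number marks a mouse, and the deviations of same-numbered tumors had correlations between -0.03 and 0.03, so that this pairing was not taken as given, although each mouse carried a tumor on either flank. The block changed no other call of the 3 genes and moved the rows called in Experiment A from 4483 to 3757 and in Experiment B from 3031 to 2491. Trim54 in KEAP1-KO tumors of Experiment B against A, 0.24, passed the threshold only in the two-sided exact permutation test, at p = 0.0286, the smallest that 4 against 4 tumors allow. In cells, a pseudocount of 0.4 in place of 4 moved Slc11a1 to 3.73 (KEAP1-KO minus WT) and -3.77 (DKO minus KEAP1-KO), and Trim54 to -5.19 (DKO minus KEAP1-KO) and -2.35 (DKO minus WT), because these rows are near the floor. The sign of Slc11a1 between DKO and WT cells changed without 1 WT library (0.04). Over 8 other settings, the skeletal muscle genes called higher in DKO tumors were between 0 and 6, those of the calreticulin-calnexin cycle between 2 and 5, and in Experiment A between 0 and 3 of the latter were called lower. With 5 to 16 reads of Calr3 and 4 to 11 of Trim54 in WT and DKO tumors, and 0 to 4 of Slc11a1 in WT and DKO cells, small changes between these groups are not detectable.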
